A study of Homo sapiens with 4 samples.

Results

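The comparison described here sets HEK293 cells induced to express SRRM3 against HEK293 cells carrying an empty vector. HEK293 is a human embryonic kidney line. The series made stable, doxycycline-inducible lines for SRRM3, SRRM4, MSI1 and the empty vector, and its title names retinal microexons as the subject. All lines, the empty vector included, received 1 µg/mL doxycycline for 24 h before polyA-selected, stranded RNA-seq. Each group had 1 library, so a difference between the lines cannot be told apart from an effect of the transgene, and the labels do not say whether a line was 1 clone or a pool. Genes entered when their mean over the SRRM3 and empty-vector libraries was at least 1 cRPKM (corrected RPKM, a read density scaled by gene length and library size). SRRM3 itself was left out. This kept 12691 of the 41614 listed genes, 11608 of them protein-coding.

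SRRM3 is a serine/arginine-rich nuclear protein and a paralog of SRRM4. Both promote the inclusion of microexons, very short exons that are spliced into mRNAs mainly in neurons, photoreceptors and endocrine cells. Among the known targets of SRRM4 is the transcript of REST, a zinc finger repressor that keeps neuronal genes silent in non-neuronal cells by binding the RE1 element and recruiting histone deacetylases and demethylases. The values used here count reads per gene, so they give transcript levels and cannot show which exons were included.

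SRRM3 (ENSG00000177679, GRCh38 chromosome 7, 76201900 to 76287288) reached 38.53 cRPKM in the SRRM3 library, against 0.49 in the empty vector, from 8634 and 109 reads. The ratio of depth-scaled counts was 78.2 with a 95% counting interval of 64.7 to 95.3. SRRM3 was at 1.39 cRPKM in the SRRM4 library and 0.61 in the MSI1 library. Reads from the transgene and from the endogenous gene cannot be told apart in these counts. Total counts were 62892722 for SRRM3 and 62083851 for the empty vector. All 7 markers of HEK293 were above the filter, led by the intermediate filament VIM at 909.49 cRPKM in SRRM3 and 973.5 in the empty vector. Of the 7, PAX2 passed only through SRRM3, with 0.83 cRPKM in the empty vector, and INA met the 2-fold rule as higher, with a log2 fold of 1.04. Markers of blood cells summed to 0.29 cRPKM in SRRM3 and 0.22 in the empty vector, with 3 of 6 at 0 in both. Endothelial markers summed to 0.39 and 0.42 cRPKM in SRRM3 and the empty vector, and fibroblast markers to 4.05 and 4.23. In a bulk library a larger share of cells with a transcript and more of it per cell cannot be told apart.

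Shown first are 6 promoters of genes that met the 2-fold rule given below, chosen because they hold a searched motif. The RE1 element has a left arm, searched as TTCAGCACC, and a right arm, searched as GGACAG, on both strands. RefSeq promoters of GRCh38.p14, from 250 bases before to 50 after each start, were given for 31 of the 55 genes that were higher with SRRM3 by the rule below. The left arm was in 10.0% of their 40 promoters and in 0.227% of the 14529 promoters of all tested genes. Over all RefSeq promoters it was in 0.376%. Both arms within 30 bases were in 7.5% of the 40 promoters, those of SYN1, SCG3 and UNC13A. They were in 0.0413% over all tested genes and in 0.0513% over all RefSeq promoters. The right arm alone is common, at 27.5% for the higher genes and 19.7% over all tested genes. It was in 4 of the 10 promoters given for the genes lower by the rule below, which held the left arm in 0. The 4 promoters with the left arm are those of SYN1 (chrX:47619808-47620107, minus strand), SCG3 (chr15:51681253-51681552, plus strand), UNC13A (chr19:17688305-17688604, minus strand) and CELSR3 (chr3:48662837-48663136, minus strand). Capitals mark the arms, which read as the reverse complement in UNC13A. The arms of CELSR3 lie farther apart, with the right arm upstream. The 4 genes with the left arm were below 1 cRPKM in the empty vector and passed the level filter only through SRRM3. Of the 12691 tested genes only 187 were that low there, so the sets compared also differ in level. The part of the filter in this contrast was not tested.
SYN1: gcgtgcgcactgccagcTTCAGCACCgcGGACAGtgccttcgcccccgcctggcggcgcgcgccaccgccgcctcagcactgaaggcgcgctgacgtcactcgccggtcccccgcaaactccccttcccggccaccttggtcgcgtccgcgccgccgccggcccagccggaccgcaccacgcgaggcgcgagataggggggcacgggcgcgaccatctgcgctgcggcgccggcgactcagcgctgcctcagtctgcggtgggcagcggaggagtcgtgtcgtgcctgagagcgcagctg
SCG3: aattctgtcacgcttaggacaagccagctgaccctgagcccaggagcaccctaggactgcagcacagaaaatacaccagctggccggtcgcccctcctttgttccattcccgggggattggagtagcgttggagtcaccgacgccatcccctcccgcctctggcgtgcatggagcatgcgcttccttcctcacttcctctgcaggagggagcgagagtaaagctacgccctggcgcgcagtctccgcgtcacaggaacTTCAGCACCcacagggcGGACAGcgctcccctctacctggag
UNC13A: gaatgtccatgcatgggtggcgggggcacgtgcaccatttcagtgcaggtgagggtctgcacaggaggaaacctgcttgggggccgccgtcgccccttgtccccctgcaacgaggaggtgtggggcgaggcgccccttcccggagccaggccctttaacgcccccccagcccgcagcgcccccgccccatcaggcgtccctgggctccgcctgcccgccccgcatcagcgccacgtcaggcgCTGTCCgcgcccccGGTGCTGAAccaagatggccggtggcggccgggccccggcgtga
CELSR3: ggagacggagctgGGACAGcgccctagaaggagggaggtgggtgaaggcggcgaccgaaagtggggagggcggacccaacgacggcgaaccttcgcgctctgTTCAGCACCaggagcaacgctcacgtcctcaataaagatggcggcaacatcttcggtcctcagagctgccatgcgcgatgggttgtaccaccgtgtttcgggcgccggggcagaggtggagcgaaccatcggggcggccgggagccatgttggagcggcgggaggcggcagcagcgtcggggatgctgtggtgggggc

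For the genes that were lower with SRRM3, the motif searched was GGAATG, the core bound by TEAD factors, again on both strands. It was in 3 of the 10 promoters given for 7 of the 12 lower genes, against 11.0% over all tested genes and 10.0% for the higher genes. Of those 3, CCN2 and ANKRD1 are known targets of the TEAD co-activator YAP, so this contrast is a description and no test. CCN2 (chr6:131951323-131951622, minus strand) holds it at 169, 104 and 95 bases before the RefSeq start. ANKRD1 (chr10:90921038-90921337, minus strand) holds it at 220 and 128 bases before the start. The third gene was IL32. The CArG box, bound by SRF, was in 0 of the promoters of higher or lower genes and in 1.1% over all tested genes. The TATA box TATAAA was in 7.5% of promoters of higher genes, in 2 of the 10 of lower genes (CCN2 and MGST1) and 5.88% over all tested genes. A match describes the sequence and is not a measured binding site, and a missing match says only that these letters are not in the window. Capitals mark GGAATG.
CCN2: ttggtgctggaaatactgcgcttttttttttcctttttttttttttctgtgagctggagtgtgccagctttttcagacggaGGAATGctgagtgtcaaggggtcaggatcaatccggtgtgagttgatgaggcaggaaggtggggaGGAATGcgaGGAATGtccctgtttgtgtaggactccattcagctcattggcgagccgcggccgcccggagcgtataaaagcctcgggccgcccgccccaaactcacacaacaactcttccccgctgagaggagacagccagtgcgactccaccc
ANKRD1: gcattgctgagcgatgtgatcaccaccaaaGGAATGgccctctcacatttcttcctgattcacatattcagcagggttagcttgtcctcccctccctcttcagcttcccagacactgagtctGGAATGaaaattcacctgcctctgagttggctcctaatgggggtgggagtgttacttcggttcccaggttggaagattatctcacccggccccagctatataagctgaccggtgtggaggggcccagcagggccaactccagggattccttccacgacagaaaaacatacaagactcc

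Most transcripts were at a level with SRRM3 close to that with the empty vector. The median log2 fold over all tested genes was 0.0033, and the 5th and 95th percentiles of protein-coding genes were -0.28 and 0.34. Folds are log2 of the ratio of cRPKM plus 0.5, and a gene was called higher or lower at 2-fold or more with a counting interval of the ratio that excludes 1. By this rule 55 genes (0.433%) were higher and 12 (0.0946%) were lower with SRRM3. Of these, 49 (0.422%) and 8 (0.0689%) were protein-coding. Without the interval the counts were 75 (0.591%) and 40 (0.315%). The 20 further higher genes and 28 further lower genes were mostly small RNAs, with at most 14 and 11 reads in a library. The filter bears on this direction: with at least 1 cRPKM required in the empty vector alone, 21 genes were higher and 15 lower, or 25 and 65 without the interval. That filter leaves out genes that rise from below 1 cRPKM. With the interval, 78 were higher and 18 lower with no filter, and 55 and 11 with a mean of at least 1 cRPKM over all 4 libraries. Without the interval, no filter gave 171 and 106. Among 4717 protein-coding genes below the level filter, 75 (1.59%) had an interval above 2 and 29 (0.615%) an interval below 0.5. At 1.5-fold with the interval, 185 genes (1.46%) were higher and 59 (0.465%) lower. This rule of size is no test, since each group has 1 library, and the intervals reflect counting error only.

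**Figure D1:**
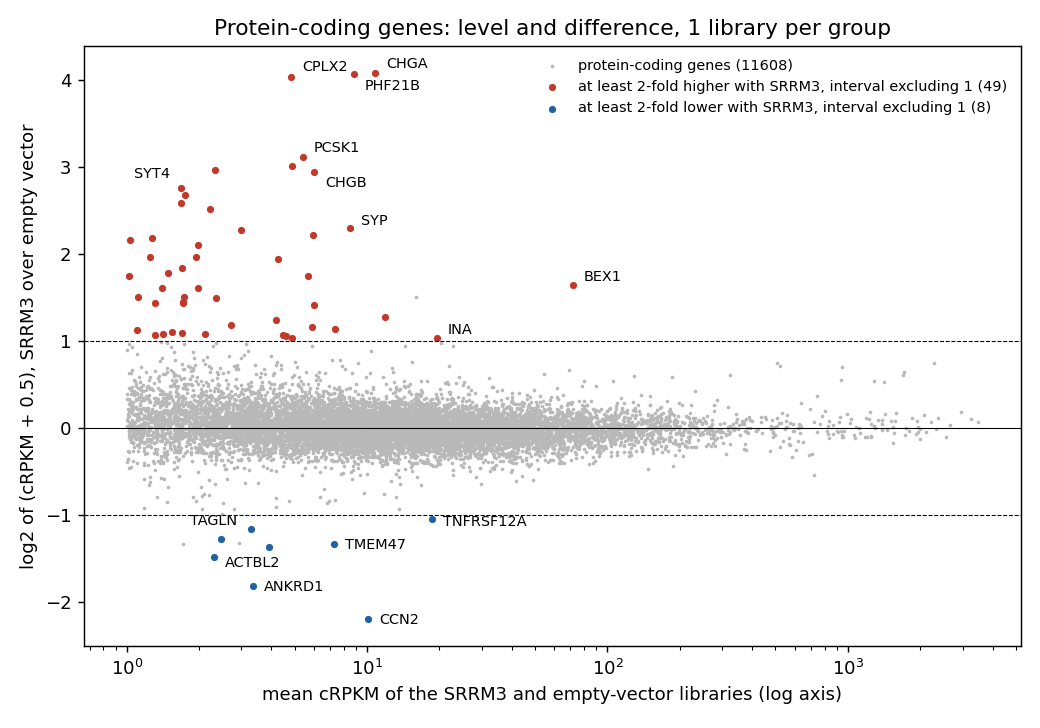
Each point is a protein-coding gene, with its mean cRPKM over the SRRM3 and empty-vector libraries on a log axis and its log2 fold of SRRM3 over empty vector. Red points are the 49 genes that were at least 2-fold higher and blue points the 8 that were lower to that extent, all with intervals that exclude 1; dashed lines mark 2-fold, and the few grey points beyond them have intervals that include 1.

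The higher genes were mostly transcripts that the empty-vector cells had at low levels. Over the 49 protein-coding genes the median level was 3.7 cRPKM in SRRM3 and 0.69 in the empty vector. In 32 of them the empty vector was below 1 cRPKM, so they passed the level filter only through the SRRM3 library and had to differ. The other 17 were at 1 cRPKM or more in the empty vector. Among the 722 protein-coding genes at 100 cRPKM or more in the empty vector, 0 were higher and 0 were lower, and among the 2717 between 1 and 5 cRPKM, 14 (0.515%) were higher. The ratio was at least 10 in 14 of the 49 genes, at least 5 in 24 and at least 3 in 34. INCA1 lay just inside the level filter, at 1.02 cRPKM in SRRM3 and 0.99 in the empty vector, and ZNF396 just outside, at 1.09 and 0.9. STX1A and INA lay just inside the 2-fold rule, with log2 folds of 1.06 and 1.04, and ACOT1 and PARP6 just outside, with 0.99 and 0.98. On the lower side TNFRSF12A lay just inside, with -1.04, and NGFR just outside, with -0.99.

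Dense-core vesicle proteins were among the genes farthest above the empty vector. These vesicles store peptide hormones and neuropeptides, and granins pack their core. CHGA (chromogranin A; ENSG00000100604, chromosome 14, 92923080 to 92935293) was at 20.81 cRPKM in SRRM3, 9.7 in SRRM4 and 1.39 in MSI1, against 0.76 in the empty vector. The ratio of SRRM3 over empty vector was 27.4 (22.3 to 34.0), from 2636 and 95 reads. CHGB (chromogranin B) was at 11.02 cRPKM in SRRM3, 8.88 in SRRM4 and 1.02 in MSI1, against 1.0 in the empty vector, with a ratio of 11.0 (9.31 to 13.0). SRRM3 and SRRM4 thus held both granins well above the other libraries. SCG3 (secretogranin 3), which tethers granins to the vesicle membrane, was at 9.04 cRPKM in SRRM3, 7.94 in SRRM4 and 0.86 in MSI1, against 0.68 in the empty vector, with a ratio of 13.3 (11.2 to 15.9). PCSK1, a convertase that cuts prohormones inside these vesicles, was at 10.07 cRPKM in SRRM3, 5.56 in SRRM4 and 1.27 in MSI1, against 0.72 in the empty vector, with a ratio of 14.0 (12.2 to 16.1). PTPRN (IA-2), a phosphatase-like protein of the vesicle membrane, was the exception among the libraries: it was at 2.41 cRPKM in SRRM3, 1.05 in SRRM4 and 1.29 in MSI1, against 0.14 in the empty vector, so MSI1 exceeded SRRM4. VGF, a granin-like peptide precursor, was at 2.37 cRPKM in SRRM3, 2.93 in SRRM4 and 0.9 in MSI1, against 0.44 in the empty vector.

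Those 6 genes were the called members of the cargo list, which had 14 tested members, 0 of them lower by the rule. Over all tested genes 0.433% were higher and 0.0946% lower by the rule. The list had a median log2 fold of 0.51 against 0.0033 over all tested genes. Of the 14, 5 passed only through SRRM3; the median was 0.275 over the 9 members with at least 1 cRPKM in the empty vector and 0.322 over 23 with no filter. An interval lay above 1 for 10 of the 14 (29.7% over all tested genes) and below 1 for 1 (28.0%), which was GAL. Levels of CPE and PAM were close in both libraries. CPE, which trims processed peptides, was at 76.52 cRPKM in SRRM3 and 77.54 in the empty vector, and PAM, which amidates peptides, at 56.81 and 56.54. The neuropeptide galanin (GAL) was at 12.74 cRPKM in SRRM3, against 18.1 in the empty vector, with a ratio of 0.704 (0.634 to 0.781). Of the 18 tested proteins of dense-core vesicle release, 2 were higher and 0 lower, with a median log2 fold of 0.054. The 2 were SYT4, a synaptotagmin found on these vesicles, and RUNDC3A, a RUN-domain protein. Both passed the level filter only through SRRM3, so they had to differ. The median was -0.007 over the 16 members with at least 1 cRPKM in the empty vector and 0.084 over 25 with no filter. SYT4 (chromosome 18, 43267878 to 43277650) was at 3.31 cRPKM in SRRM3, 1.68 in SRRM4 and 0.03 in MSI1, against 0.06 in the empty vector, with a ratio of 52.1 (31.9 to 91.6). RUNDC3A was at 4.14 cRPKM in SRRM3, 3.04 in SRRM4 and 0.57 in MSI1, against 0.31 in the empty vector.

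Genes for the fusion of synaptic vesicles followed. Fusion is driven by SNARE proteins, primed by UNC13 proteins and clamped by complexins until calcium arrives. CPLX2 (complexin 2; ENSG00000145920, chromosome 5, 175796310 to 175884020) was at 9.54 cRPKM in SRRM3, 5.48 in SRRM4 and 0.11 in MSI1, against 0.11 in the empty vector. Its ratio of SRRM3 over empty vector, 89.3 (63.4 to 130), was the largest among the 49 protein-coding genes. CPLX1 was at 2.57 cRPKM in SRRM3, 2.82 in SRRM4 and 0.54 in MSI1, against 0.39 in the empty vector, with a ratio of 6.66 (4.95 to 9.12). Both complexins thus stood apart in both SRRM libraries, though CPLX1 was slightly higher in SRRM4. UNC13A, a priming factor, was at 3.23 cRPKM in SRRM3, 3.02 in SRRM4 and 0.16 in MSI1, against 0.12 in the empty vector, with a ratio of 25.9 (20.6 to 33.1). NAPB, a neuronal cofactor of SNARE disassembly, was at 8.32 cRPKM in SRRM3, 10.55 in SRRM4 and 3.74 in MSI1, against 3.44 in the empty vector. The SNARE protein STX1A was at 6.4 cRPKM in SRRM3, 7.33 in SRRM4 and 3.83 in MSI1, against 2.81 in the empty vector; it overlaps the expressed gene BUD23 on the other strand, and the use of strand in counting is not given in these sources. These 5 of 20 tested fusion genes were higher and 0 were lower, beside 0.433% and 0.0946% over all tested genes. The median log2 fold was 0.17. Of the 20, 3 passed the level filter only through SRRM3 and had to differ: CPLX2, CPLX1 and UNC13A. The median was 0.076 over the 17 members with at least 1 cRPKM in the empty vector and 0.207 over 34 with no filter. A ubiquitous partner stood closer: NSF, the ATPase that recycles SNAREs, was at 51.35 cRPKM in SRRM3 and 49.25 in the empty vector.

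Of 19 tested synaptic vesicle proteins and recycling factors, 3 were higher and 0 lower, beside 0.433% and 0.0946% over all tested genes. The median log2 fold was 0.07. It was 0.052 over the 18 members with at least 1 cRPKM in the empty vector. The other member, SYN1, passed the level filter only through SRRM3. SYP (synaptophysin), a vesicle membrane protein, was at 14.49 cRPKM in SRRM3, 10.84 in SRRM4 and 2.81 in MSI1, against 2.55 in the empty vector, with a ratio of 5.69 (5.11 to 6.36). Its broadly expressed relative SYPL1 was at 31.17 cRPKM in SRRM3, against 40.58 in the empty vector, with a ratio of 0.768 (0.737 to 0.800). SYN1 (synapsin 1), which tethers vesicles to actin, was at 2.28 cRPKM in SRRM3, 1.81 in SRRM4 and 0.36 in MSI1, against 0.21 in the empty vector. SYN1 overlaps ARAF and TIMP1 on the other strand. The neuronal adaptor subunit AP3B2 was at 7.06 cRPKM in SRRM3, 6.84 in SRRM4 and 2.21 in MSI1, against 1.46 in the empty vector. SYP, SYN1 and AP3B2 were above the MSI1 and empty-vector libraries in both SRRM libraries, and SYPL1 was below the empty vector in both.

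**Figure D2:**
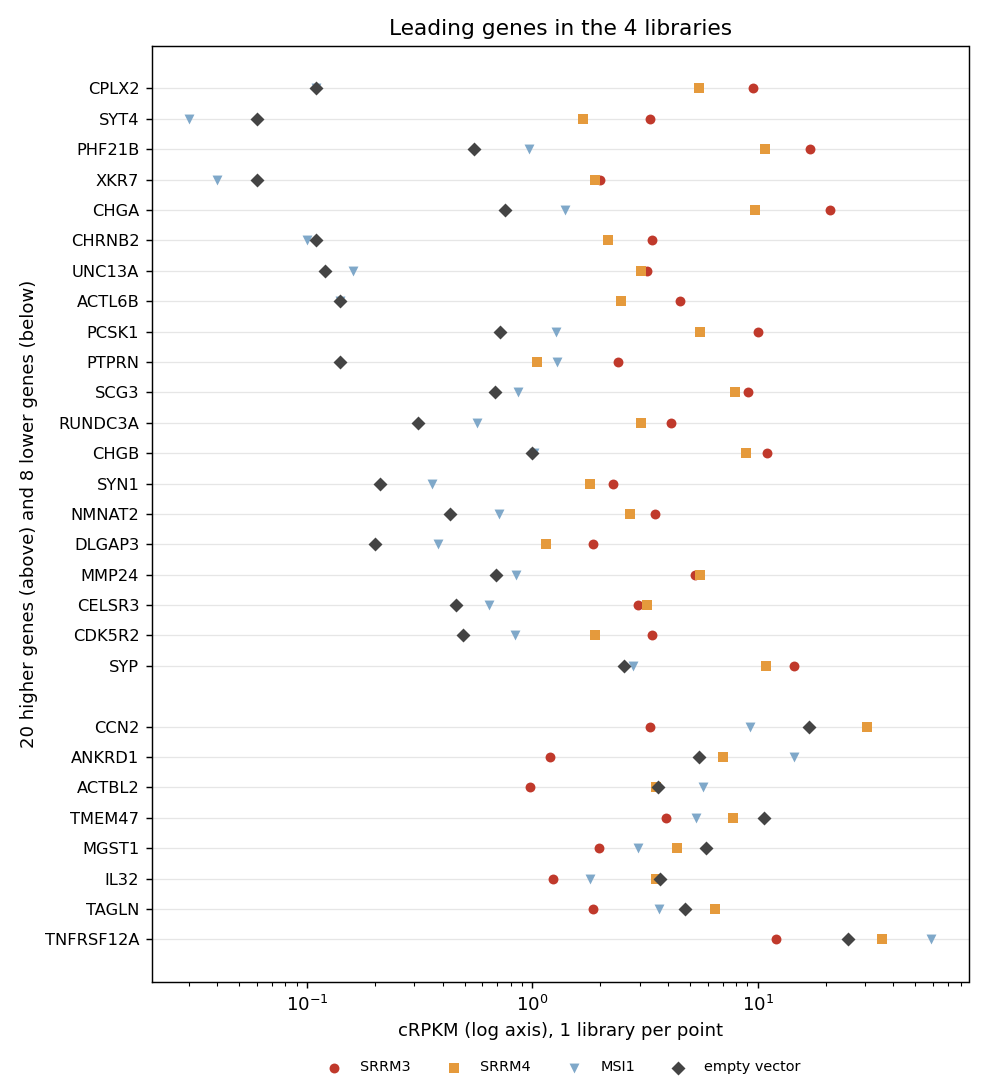
Levels in cRPKM on a log axis of the 20 higher protein-coding genes with the highest lower interval bound and of the 8 lower protein-coding genes; each point is 1 library. In the upper rows SRRM3 stands to the right of the empty vector, from 14.49 against 2.55 cRPKM for SYP to 9.54 against 0.11 for CPLX2, and in the lower rows it is leftmost of the 4 libraries.

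The corepressor partners of REST differed little, with 1 exception. Of 23 tested members of the complex, 1 was higher and 0 lower, beside 0.433% and 0.0946% over all tested genes. The median log2 fold was 0.09. It was 0.078 over the 22 members with at least 1 cRPKM in the empty vector. The 1 higher gene, PHF21B, passed the level filter only through SRRM3. PHF21B (ENSG00000056487, chromosome 22, 44881162 to 45009999), a PHD finger protein related to the corepressor subunit PHF21A, was at 17.13 cRPKM in SRRM3, 10.8 in SRRM4 and 0.97 in MSI1, against 0.55 in the empty vector. Its ratio was 31.3 (26.2 to 37.8), from 3903 and 123 reads. PHF21A itself was at 6.81 cRPKM in SRRM3 and 5.76 in the empty vector. REST was at 7.13 cRPKM in SRRM3, 6.5 in SRRM4 and 7.74 in MSI1, against 7.93 in the empty vector, with a ratio of 0.899 (0.857 to 0.944). RCOR2, a CoREST protein, was at 3.01 cRPKM in SRRM3 and 2.21 in the empty vector. HDAC1, the histone deacetylase of the complex, was at 108.37 cRPKM in SRRM3 and 106.91 in the empty vector. The transcripts of the repressor and of its enzymes were thus within 1.5-fold, while PHF21B was far outside.

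Genes that REST is known to repress made up 23 of the 49 higher protein-coding genes. Among all 12691 tested genes, 37 were on this list. The list was chosen with earlier results of these data known, so the share describes these calls and is no test. The list holds 62 genes, of which 60 were matched with SRRM3 left out, and 37 passed the level filter. Of the 37, 18 were below 1 cRPKM in the empty vector and passed only through SRRM3, so the counts describe the genes that passed and not the whole list. By the rule 23 were higher and 0 lower, 35 had an interval above 1 (29.7% over all tested genes) and 1 an interval below 1 (28.0%), and the median log2 fold was 1.51. The median was 0.475 over the 19 members with at least 1 cRPKM in the empty vector and 0.754 over 57 with no filter. Besides the vesicle genes, CHRNB2, a nicotinic acetylcholine receptor subunit, was at 3.4 cRPKM in SRRM3, 2.17 in SRRM4 and 0.1 in MSI1, against 0.11 in the empty vector, with a ratio of 29.9 (21.9 to 41.9). ACTL6B, the neuronal actin-like subunit of BAF chromatin remodellers, was at 4.52 cRPKM in SRRM3, 2.47 in SRRM4 and 0.14 in MSI1, against 0.14 in the empty vector, with a ratio of 32.1 (18.6 to 60.8). XKR7, an XK-related membrane protein, was at 2.0 cRPKM in SRRM3, 1.9 in SRRM4 and 0.04 in MSI1, against 0.06 in the empty vector. These 3 genes were near 0 without an SRRM transgene.

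BEX1, a small neuronal adaptor protein, was the most abundant of the higher genes, at 109.34 cRPKM in SRRM3, 74.64 in SRRM4 and 39.43 in MSI1, against 34.62 in the empty vector, with a ratio of 3.16 (2.98 to 3.35). CELSR3, an atypical cadherin of axon guidance, was at 2.94 cRPKM in SRRM3, 3.21 in SRRM4 and 0.64 in MSI1, against 0.46 in the empty vector, with a ratio of 6.37 (5.68 to 7.16). MMP24, a membrane-bound metalloproteinase, was at 5.29 cRPKM in SRRM3, 5.55 in SRRM4 and 0.85 in MSI1, against 0.69 in the empty vector; it overlaps MMP24OS. In CELSR3 and MMP24 the SRRM4 library was slightly above SRRM3. The dopamine receptor DRD2 was at 1.89 cRPKM in SRRM3, 2.27 in SRRM4 and 0.24 in MSI1, against 0.34 in the empty vector. The adhesion molecule L1CAM was at 2.74 cRPKM in SRRM3, 1.86 in SRRM4 and 1.37 in MSI1, against 0.69 in the empty vector, so MSI1 also exceeded the empty vector.

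The 14 tested listed targets that missed the rule were each above 1 cRPKM in the empty vector, while 5 others at 1 cRPKM or more there (CHGB, SYP, BEX1, INA and STX1A) met it. MAPK8IP2, a scaffold of JNK signalling, was at 29.98 cRPKM in SRRM3 and 15.39 in the empty vector, with a ratio of 1.95 (1.87 to 2.03). NEFM, a neurofilament, was at 19.44 cRPKM in SRRM3 and 11.32 in the empty vector. VAMP2, the vesicle SNARE, was at 20.9 cRPKM in SRRM3 and 16.44 in the empty vector. Of the 23 matched members under the filter, named here after their values were seen, SEZ6 was at 1.27 cRPKM in SRRM3 and 0.02 in the empty vector, and SCG2 (secretogranin 2) at 1.26 and 0.18. SNAP25, a SNARE protein of neurons, was at 0.96 cRPKM in SRRM3 and 0.08 in the empty vector, from 23 and 2 reads. NPPB, the natriuretic peptide B gene, went the other way, at 0.25 cRPKM in SRRM3 and 0.77 in the empty vector, and BDNF was at 0.46 and 0.48. SRRM4, itself on the list, was at 0.18 cRPKM in SRRM3 and 0.39 in the empty vector.

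**Figure D3:**
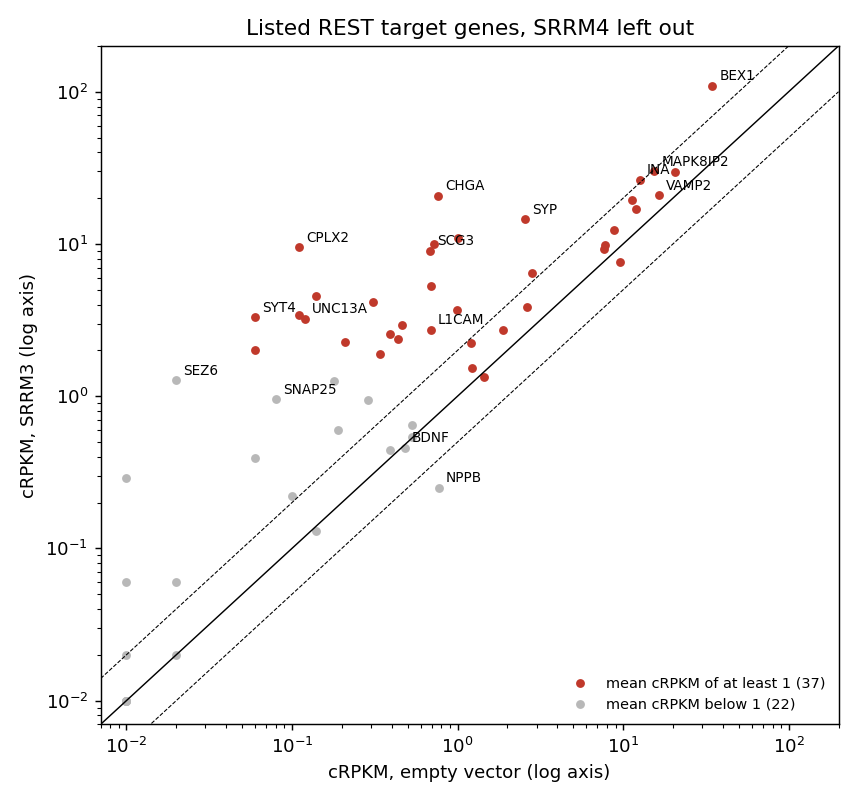
Listed REST target genes by their cRPKM in SRRM3 (vertical) and in the empty vector (horizontal), both on log axes, with values under 0.01 drawn at 0.01; SRRM4 is left out as a transgene of the series. The solid line marks equal levels and the dashed lines 2-fold; CHGA lies at 20.81 and 0.76 cRPKM and CPLX2 at 9.54 and 0.11, while VAMP2, at 20.9 and 16.44, lies close to the line.

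In the other neuronal gene groups the counts of called members read against 0.433% higher and 0.0946% lower over all tested genes. In the BAF complex ACTL6B was the 1 higher gene of 29 tested, with a median log2 fold of 0.07. ACTL6B passed the level filter only through SRRM3. Its progenitor counterpart ACTL6A (named after its value was seen) was at 53.4 cRPKM in SRRM3 and 53.57 in the empty vector. Among 15 tested neurotransmitter receptors 3 were higher and 0 lower, CHRNB2, DRD2 and the GABA receptor subunit GABRD, which was at 1.95 cRPKM in SRRM3 and 0.67 in the empty vector. Of the 15 receptors, 5 passed only through SRRM3, these 3 among them. In the neuronal cytoskeleton 2 of 31 were higher and 0 lower, with a median log2 fold of 0.18. CRMP1, a mediator of semaphorin signalling, was at 10.15 cRPKM in SRRM3, 3.99 in SRRM4 and 3.03 in MSI1, against 1.79 in the empty vector, with a ratio of 5.67 (5.06 to 6.38); it overlaps EVC on the other strand. The neurofilament-associated INA was at 26.42 cRPKM in SRRM3, 22.01 in SRRM4 and 20.24 in MSI1, against 12.61 in the empty vector, so the empty vector was the library that stood apart. The light neurofilament NEFL was at 40.49 cRPKM in SRRM3 and 45.91 in the empty vector. In axon guidance and neural adhesion 2 of 40 were higher (CELSR3 and L1CAM) and 0 lower. Of the 40, 5 passed the level filter only through SRRM3, CELSR3 and L1CAM among them. The protocadherin PCDH19 was at 1.65 cRPKM in SRRM3 and 3.4 in the empty vector, with a ratio of 0.484 (0.445 to 0.527).

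No voltage-gated ion channel met the rule in either direction, beside 0.433% higher and 0.0946% lower over all tested genes. The 21 tested had a median log2 fold of 0.27, and 14 had an interval above 1 and 0 below, against 29.7% and 28.0% over all tested genes. With MSI1 as the control library the median was 0.10, and with no filter 0.13. The potassium channel KCNH2 was at 2.39 cRPKM in SRRM3 and 1.27 in the empty vector, and the sodium channel subunit SCN3B at 2.23 and 1.21. Among 23 neural transcription factors 0 were higher and 0 lower, with a median of 0.12; SOX2 was at 5.97 cRPKM in SRRM3 and 4.92 in the empty vector. Of the mature neuron markers only 2 of 6 passed the filter, and their 6 levels summed to 6.55 cRPKM in SRRM3, 7.11 in SRRM4 and 5.11 in the empty vector. Among the higher genes outside the neuronal lists, NMNAT2, an NAD synthesis enzyme of axons, was at 3.51 cRPKM in SRRM3, 2.7 in SRRM4 and 0.71 in MSI1, against 0.43 in the empty vector. DLGAP3, a postsynaptic scaffold, was at 1.85 cRPKM in SRRM3, 1.15 in SRRM4 and 0.38 in MSI1, against 0.2 in the empty vector. CDK5R2, an activator of the kinase CDK5, was at 3.38 cRPKM in SRRM3, 1.89 in SRRM4 and 0.84 in MSI1, against 0.49 in the empty vector.

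Microexon hosts carry the known splicing targets of SRRM proteins. Of 63 tested hosts 0 were higher and 0 lower, beside 0.433% and 0.0946% over all tested genes, so a count of 0 does not set these genes apart. They had log2 folds from -0.27 to 0.43 and a median near 0 (-0.002). Of 19 neural splicing regulators 0 were higher and 0 lower, with a median of 0.02; PTBP1, a repressor of neural exons, was at 187.82 cRPKM in SRRM3 and 171.18 in the empty vector. The family members SRRM1 and SRRM2 were at 47.84 and 92.71 cRPKM in SRRM3, against 46.58 and 90.94 in the empty vector. Of 34 SR proteins and their kinases 0 were higher and 0 lower, with a median of 0.04. Photoreceptor genes were nearly silent: 3 of 38 passed the filter, with UNC119 at 42.38 cRPKM in SRRM3 and 36.5 in the empty vector, and the highest of the others was at 0.63 cRPKM. Of the 6 tested pancreatic islet genes 0 were higher and 0 lower.

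**Figure D4:**
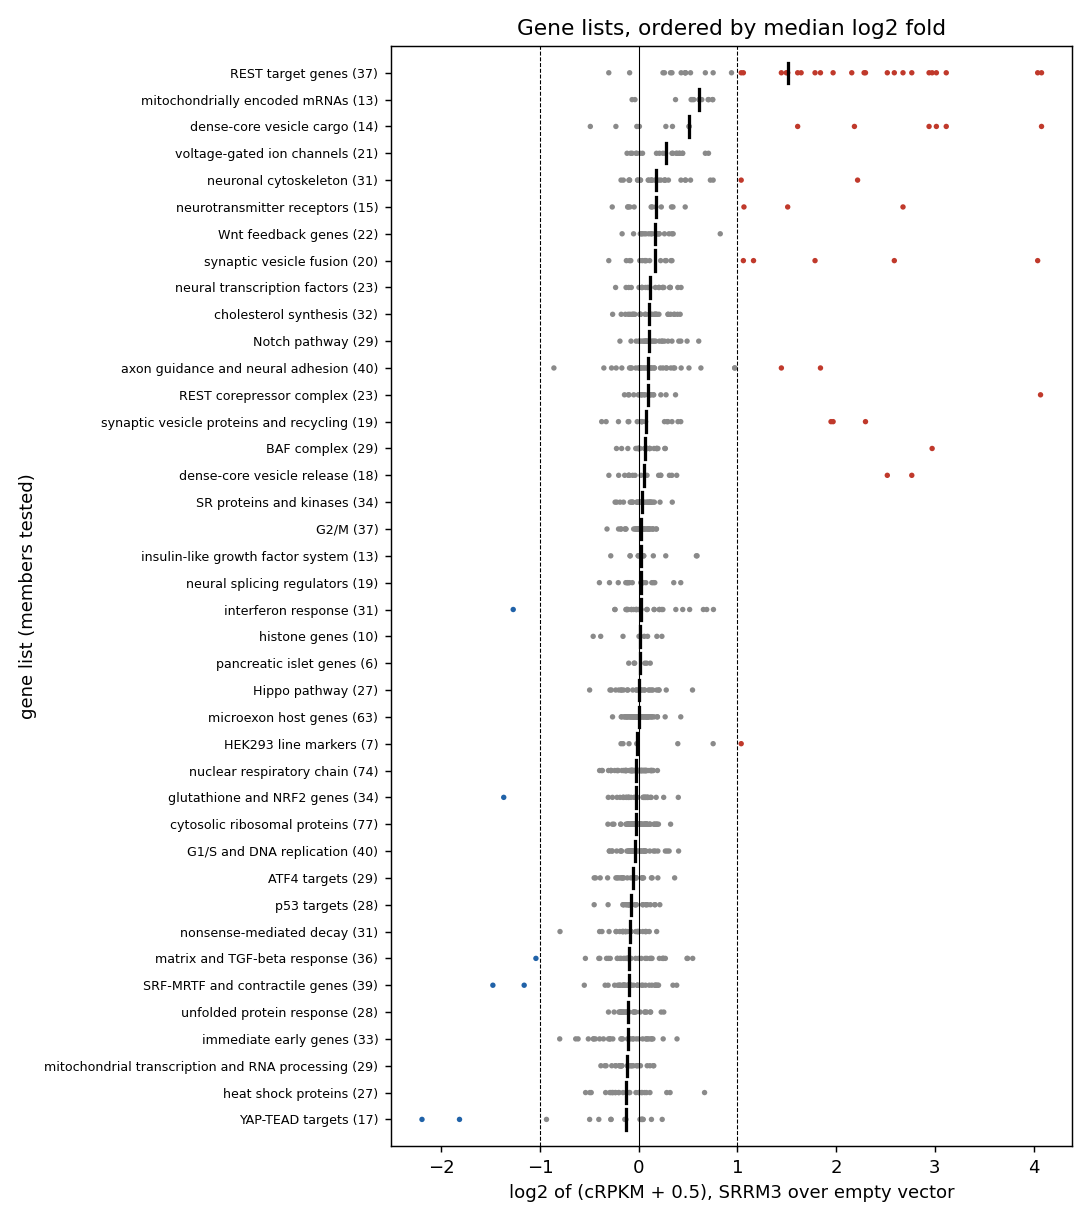
Log2 folds of SRRM3 over empty vector for every list with at least 5 tested members, 1 point per gene, with the number tested in parentheses. Vertical bars are medians, from 1.51 for REST target genes (18 of whose 37 tested members passed only through SRRM3; 0.475 over the other 19) to -0.13 for YAP-TEAD targets, and coloured points lie at 2-fold or beyond, red for higher and blue for lower.

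Among the 8 lower protein-coding genes CCN2 and ANKRD1 had the largest negative folds. Both are known targets of YAP, a co-activator of TEAD factors that responds to cell contact and tension. CCN2 (connective tissue growth factor; ENSG00000118523, chromosome 6, 131948176 to 131951373), a secreted matrix protein, was at 3.31 cRPKM in SRRM3, 30.52 in SRRM4 and 9.27 in MSI1, against 16.94 in the empty vector. The ratio of SRRM3 over empty vector was 0.196 (0.177 to 0.216), from 477 and 2409 reads. ANKRD1, an ankyrin repeat protein of muscle, was at 1.2 cRPKM in SRRM3, 6.98 in SRRM4 and 14.43 in MSI1, against 5.48 in the empty vector, with a ratio of 0.219 (0.182 to 0.263). SRRM3 was the lowest of the 4 libraries for both genes, and SRRM4 was above the empty vector. CCN1, the close relative of CCN2, missed the 2-fold rule, at 9.17 cRPKM in SRRM3, 25.32 in SRRM4 and 18.89 in MSI1, against 17.97 in the empty vector, with a ratio of 0.510 (0.477 to 0.546).

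Of 17 tested YAP-TEAD targets 0 were higher and 2 lower, CCN2 and ANKRD1, with a median log2 fold of -0.13. Over all tested genes 0.433% were higher and 0.0946% lower, and the Hippo and SRF-MRTF counts below read against the same shares. By sign alone 8 of the 17 targets were above the empty vector and 9 below. An interval lay below 1 for 8 of them (28.0% over all tested genes) and above 1 for 2 (29.7%). The median depends on the setting: it was -0.06 with the filter over all 4 libraries, -0.03 with MSI1 as the control library, and 0.025 over the 7 members with a mean of at least 5 cRPKM. AMOTL2, a feedback inhibitor of YAP, was at 3.39 cRPKM in SRRM3 and 4.99 in the empty vector. In the Hippo pathway itself 0 of 27 genes were higher and 0 lower. Its largest positive fold was that of AMOT, a scaffold that binds YAP, at 94.68 cRPKM in SRRM3, 49.52 in SRRM4 and 41.65 in MSI1, against 64.73 in the empty vector, with a ratio of 1.46 (1.44 to 1.49). TAGLN (transgelin), an actin-binding SRF target, was at 1.85 cRPKM in SRRM3, 6.49 in SRRM4 and 3.65 in MSI1, against 4.75 in the empty vector, with a ratio of 0.389 (0.306 to 0.491); it overlaps PCSK7. The actin paralog ACTBL2 was at 0.98 cRPKM in SRRM3, 3.53 in SRRM4 and 5.72 in MSI1, against 3.62 in the empty vector, and its reads may be shared with other actins. They were the 2 lower genes of 39 tested SRF-MRTF and contractile genes, with 0 higher, a median of -0.10, 22 intervals below 1 and 11 above, against 28.0% and 29.7% over all tested genes. VCL (vinculin), which links adhesions to actin, was at 35.68 cRPKM in SRRM3 and 52.5 in the empty vector, with a ratio of 0.679 (0.665 to 0.694).

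TNFRSF12A, the receptor of the cytokine TWEAK, was at 12.02 cRPKM in SRRM3, 35.67 in SRRM4 and 58.92 in MSI1, against 25.26 in the empty vector, with a ratio of 0.476 (0.435 to 0.520). It was the 1 lower gene of 36 in the matrix and TGF-beta list, where 0 were higher and the median was -0.10. The shares over all tested genes were 0.0946% lower and 0.433% higher. The basement membrane collagen COL4A1 was at 18.43 cRPKM in SRRM3, 18.74 in SRRM4 and 18.87 in MSI1, against 27.03 in the empty vector, so here the empty vector stood alone. Among 33 immediate early genes 0 were higher and 0 lower, with a median of -0.11, 18 intervals below 1 and 6 above, again beside 28.0% and 29.7%. FOSL1, an AP-1 subunit, was at 2.9 cRPKM in SRRM3, 6.03 in SRRM4 and 7.02 in MSI1, against 5.42 in the empty vector. EGR1 was at 1.55 cRPKM in SRRM3, 4.34 in SRRM4 and 2.88 in MSI1, against 2.42 in the empty vector. MYC was at 9.83 cRPKM in SRRM3, 15.11 in SRRM4 and 8.63 in MSI1, against 15.31 in the empty vector. SRRM3 was the lowest library for FOSL1 and EGR1, and MSI1 for MYC.

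TMEM47, a junctional membrane protein, was at 3.93 cRPKM in SRRM3, 7.74 in SRRM4 and 5.31 in MSI1, against 10.66 in the empty vector, with a ratio of 0.369 (0.343 to 0.397). MGST1, a microsomal glutathione transferase, was at 1.97 cRPKM in SRRM3, 4.37 in SRRM4 and 2.94 in MSI1, against 5.87 in the empty vector, with a ratio of 0.335 (0.267 to 0.419). The cytokine IL32 was at 1.24 cRPKM in SRRM3, 3.55 in SRRM4 and 1.81 in MSI1, against 3.7 in the empty vector. For these 3 genes the empty vector was the highest and SRRM3 the lowest of the 4 libraries. MGST1 was the 1 lower gene of 34 glutathione and NRF2 genes and IL32 the 1 lower of 31 interferon response genes. In either list 0 were higher, and the shares over all tested genes were 0.0946% lower and 0.433% higher. IFITM1, an antiviral membrane protein, was at 5.45 cRPKM in SRRM3, 1.24 in SRRM4 and 0.4 in MSI1, against 3.02 in the empty vector, with a ratio of 1.8 (1.44 to 2.26). The epithelial markers also differed: 4 of 5 were tested, these 4 had an interval above 1 (29.7% over all tested genes), and the 5 levels summed to 206.22 cRPKM in SRRM3, 152.02 in SRRM4 and 194.92 in MSI1, against 151.13 in the empty vector. Their part in the differences was not tested.

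Mitochondrially encoded mRNAs, which code for subunits of the respiratory chain and ATP synthase, stood above the empty vector as a group without reaching the 2-fold rule. Of 13, 0 were higher or lower by the rule, beside 0.433% and 0.0946% over all tested genes. An interval lay above 1 for 11 of the 13 (29.7% over all tested genes) and below 1 for 1 (28.0%). The median log2 fold was 0.61, or 0.33 with MSI1 as the control library. MT-CO2 was at 2860.05 cRPKM in SRRM3, 1809.86 in SRRM4 and 2173.64 in MSI1, against 1700.08 in the empty vector, with a ratio of 1.68 (1.67 to 1.70). MT-ND5 was at 637.07 cRPKM in SRRM3, 426.46 in SRRM4 and 431.56 in MSI1, against 379.04 in the empty vector. MT-ND3 was at 949.34 cRPKM in SRRM3 and 974.95 in the empty vector, and MT-ND6, the gene of the other strand, at 8.08 and 8.49. The 13 mRNAs took 1.283% of all counts in SRRM3, 0.891% in SRRM4 and 1.021% in MSI1, against 0.838% in the empty vector. The nuclear genes of the respiratory chain did not share this: of 74 tested, 0 were higher and 0 lower, with a median of -0.02, and 29 factors of mitochondrial transcription and RNA processing had a median of -0.12. Copies of mitochondrial sequence in the nuclear genome can take up such reads, which makes single values uncertain.

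**Figure D5:**
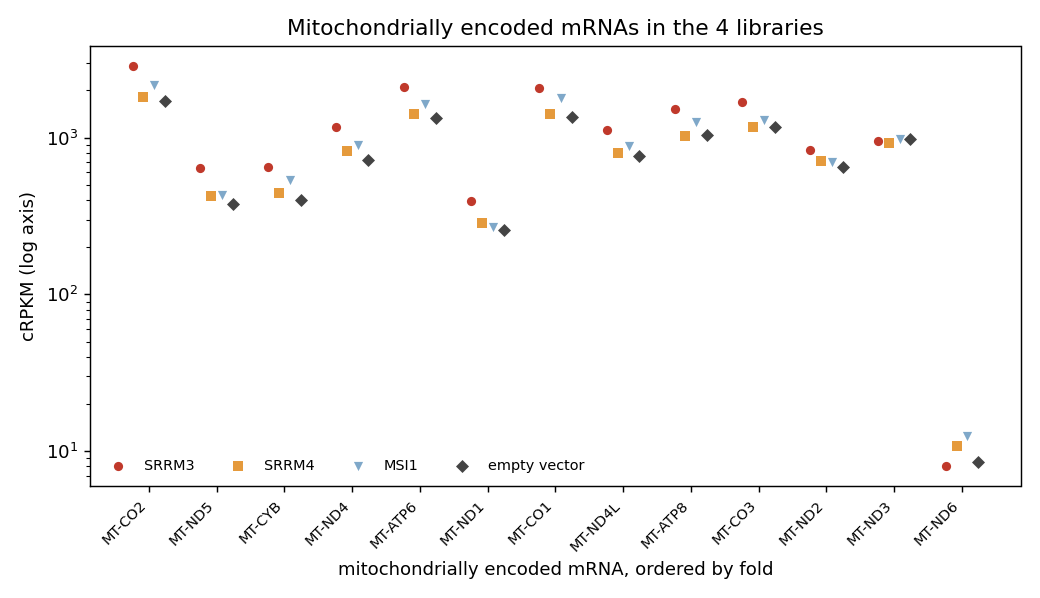
Levels in cRPKM on a log axis of the 13 mitochondrially encoded mRNAs in the 4 libraries, 1 point per library, ordered by the fold of SRRM3 over empty vector. SRRM3 is the highest library for 11 of them, and MT-ND3 and MT-ND6 are the exceptions.

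The growth, stress and signalling lists that follow held 0 higher and 0 lower genes by the rule. Over all tested genes the shares were 0.433% and 0.0946%, so a count of 0 does not set these lists apart. The medians were -0.03 for 77 ribosomal proteins, -0.04 for 40 genes of G1/S and DNA replication, 0.03 for 37 of G2/M and -0.08 for 28 p53 targets. They were -0.13 for 27 heat shock proteins, -0.11 for 28 genes of the unfolded protein response, -0.06 for 29 ATF4 targets and -0.09 for 31 genes of nonsense-mediated decay. Cholesterol synthesis had 0.11 over 32 genes, the Notch pathway 0.10 over 29, Wnt feedback genes 0.17 over 22 and histone genes 0.01 over 10. In the insulin-like growth factor list, with a median of 0.02 over 13, the adaptor IRS4 was at 223.05 cRPKM in SRRM3, 145.51 in SRRM4 and 108.19 in MSI1, against 148.64 in the empty vector, with a ratio of 1.5 (1.48 to 1.52). IGFBP5, a binding protein of these factors, was at 29.03 cRPKM in SRRM3, 13.42 in SRRM4 and 8.16 in MSI1, against 19.1 in the empty vector. For AMOT, IRS4 and IGFBP5, SRRM3 was the highest and MSI1 the lowest of the 4 libraries.

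The MSI1 library was used as another control. Against it the 49 higher protein-coding genes each had an interval above 1 (30.6% over all protein-coding genes) and the 8 lower ones each an interval below 1 (36.1%); the SRRM3 library is the same in both comparisons. The MSI1 library was itself above the empty vector in 41 of the 49, with an interval above 1 in 33. The share of all genes with MSI1 above the empty vector was not computed, so these counts have no reference. PTPRN came closest to equality among the 20 leading higher genes, at 1.87-fold over MSI1, against 16.9-fold over the empty vector. INA was at 1.30-fold over MSI1, L1CAM at 1.99-fold and TMEM47 at 0.741-fold.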

How the data were processed

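The 4 libraries were grouped by their labels, with 1 library per group. Per the labels, they are polyA-selected and stranded, and per the submitters' processing notes the genome build is GRCh38 (hg38). Which aligner, counter and annotation release were used, and whether counting was by strand, is not given in these sources. The deposited file of each library gives, per gene, a whole-number read count and a corrected RPKM (cRPKM) with 2 decimals; over 8585 well-covered genes the ratio of deposited count to cRPKM between SRRM3 and the empty vector was 1.01303, equal to the ratio of total counts. Of 41614 listed genes, 1426 had no value and were left out. Gene types and coordinates come from GENCODE 29 on GRCh38. Symbols are current gene symbols, or the GENCODE 29 name where none was given.

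Levels were compared as log2 of cRPKM plus 0.5, which understates differences of low genes, over genes with a mean of at least 1 cRPKM. Exact conditional (Clopper-Pearson) 95% intervals were computed for the ratio of counts scaled by total counts; reads are not independent molecules, so these intervals hold for counting error and for these libraries alone. No p-value was computed. A count of 3 sets the floor, 0.0483 CPM in the empty vector. The procedure was tested on simulated data that held counting error only, for genes at 1 cRPKM or more in the empty vector. That check covers neither genes below this level nor spread between libraries. The 48 gene lists, the members and the naming rule were chosen with earlier results of these data known. The rule names SRRM3, CPLX2, CHGA and CCN2, the 20 higher and 20 lower protein-coding genes by the interval bound nearest to 1, called list members, up to 6 further members per list with the largest fold and its 2 most abundant members. In the lower direction 8 genes qualified. Some genes outside the rule are named as chosen after their values were seen. Genes at the thresholds are named by their position there. Some items are not reported here. Motifs were searched in RefSeq promoters of GRCh38.p14, as a description and no test. Alternatives were other pseudocounts, level filters, centring, CPM with TMM factors, protein-coding genes only, MSI1 as control and a 1.5-fold rule. The tools were edgeR 4.0.16 in R 4.3.3 for TMM factors, and Python 3.11.15 with scipy 1.17.1 for intervals, pandas 2.3.3 and numpy 2.4.6 for tables and matplotlib 3.10.9 for plots.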

Additional observations from a re-analysis of the deposited data

Results flagged for a closer look

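For 4 of the 8 lower protein-coding genes the SRRM3 and SRRM4 libraries lay to either side of the empty vector, each with a counting interval that excludes 1. For 2 others, TMEM47 and MGST1, SRRM4 was also below the empty vector, with ratios of 0.727 and 0.745 and intervals below 1. For IL32 and ACTBL2 the interval of SRRM4 over empty vector included 1. The share of such cases over all genes was not computed. The difference between the SRRM3 and SRRM4 effects was not tested, with 1 library in each group, and both ratios use the same empty-vector library. The 4 genes on either side were CCN2, ANKRD1, TAGLN and TNFRSF12A. CCN2 had a ratio of 0.196 in SRRM3 over empty vector and 1.8 in SRRM4 over empty vector. ANKRD1 had 0.219 in SRRM3 and 1.27 in SRRM4. TAGLN had 0.389 in SRRM3 and 1.37 in SRRM4. TNFRSF12A had 0.476 in SRRM3 and 1.41 in SRRM4.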

How the results depend on the processing

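No paired analysis was possible because each group has 1 library, and no library could be left out. Relative to 75 higher and 40 lower genes at 2-fold, a pseudocount of 2 gave 36 and 21, no filter on low values 171 and 106, a mean of at least 5 cRPKM 16 and 7, at least 1 cRPKM in the empty vector 25 and 65, and the 1.5-fold rule 223 and 113. The lower count was 14 by CPM with TMM factors and 10 among protein-coding genes. Relative to 55 higher and 12 lower genes with an interval excluding 1, a pseudocount of 2 gave 25 and 4, a mean of at least 5 cRPKM 14 and 3, and the 1.5-fold rule 185 and 59. The higher count was 21 with at least 1 cRPKM in the empty vector, and the lower count 23 with a pseudocount of 0.1 and 39 with MSI1 as control. With MSI1 as control 36 of the 55 higher and 6 of the 12 lower genes were shared. The share of higher genes among 2-fold calls was 65.2% (82.1% with the interval), 81.1% by CPM with TMM factors, 83.3% among protein-coding genes and 27.8% (58.3%) with at least 1 cRPKM in the empty vector; with MSI1 as control the share with the interval was 65.5%. The list medians of at least 0.25 on the log2 scale, in either direction, numbered 4, against 8 with MSI1 as control and 9 for list means. All 40 named called genes kept their sign under pseudocounts of 0.1 and 2, centring, CPM with TMM factors and MSI1 as control; 32 stayed at 2-fold with MSI1 as control and 23 with a pseudocount of 2. Beyond the filters, which set which genes could be counted, the cause of these shifts was not tested. Depth limits genes near 0 in a library most: SNAP25, with 2 reads in the empty vector, had an interval of 2.81 to 99.3.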

Other observations

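Below the level filter, 4717 protein-coding genes had a value, and 75 of them (1.59%) had an interval of the count ratio above 2, while 29 (0.615%) had an interval below 0.5. The genes named here were chosen after their values were seen. GPR158, an orphan receptor, was at 1.27 cRPKM in SRRM3, 0.64 in SRRM4 and 0.06 in MSI1, against 0.03 in the empty vector, from 552 and 15 reads in SRRM3 and the empty vector. PTPRN2, the paralog of PTPRN, was at 0.56 cRPKM in SRRM3, 0.21 in SRRM4 and 0.07 in MSI1, against 0.01 in the empty vector, from 47 reads and 1 read. HPCA (hippocalcin), a calcium sensor, was at 0.84 cRPKM in SRRM3, 0.46 in SRRM4 and 0.1 in MSI1, against 0.02 in the empty vector. The calcium channel subunit CACNA1B was at 0.74 cRPKM in SRRM3, 0.43 in SRRM4 and 0.2 in MSI1, against 0.11 in the empty vector, with a ratio of 6.55 (5.06 to 8.58). CELF3, a neural splicing regulator, was at 0.67 cRPKM in SRRM3, 0.54 in SRRM4 and 0.03 in MSI1, against 0.05 in the empty vector. These levels were low in every library. On the lower side, MYOF, a membrane repair protein, was at 0.19 cRPKM in SRRM3, 1.18 in SRRM4 and 0.49 in MSI1, against 0.95 in the empty vector, and the inflammatory caspase CASP4 was at 0.16 cRPKM in SRRM3, 0.7 in SRRM4 and 0.31 in MSI1, against 1.1 in the empty vector. Neuronal genes were on this side too. LRRTM4 was at 0.02 cRPKM in SRRM3 and 0.34 in the empty vector, from 3 and 46 reads. UNC5D was at 0.03 and 0.23 cRPKM, from 11 and 101 reads.

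Between 1.5-fold and 2-fold by cRPKM plus 0.5, with log2 folds of 0.98 for PARP6, 0.96 for APBB3 and 0.83 for SFRP5, 3 genes are given. PARP6, a mono-ADP-ribosyltransferase, was at 27.02 cRPKM in SRRM3, 30.74 in SRRM4 and 13.81 in MSI1, against 13.44 in the empty vector, with a ratio of 2.01 (1.91 to 2.11). APBB3, an adaptor that binds the amyloid precursor protein, was at 4.31 cRPKM in SRRM3, 4.9 in SRRM4 and 2.0 in MSI1, against 1.97 in the empty vector, with a ratio of 2.19 (1.86 to 2.58). Both genes, named after their values were seen, separated the SRRM libraries from the other libraries at levels well above the filter. The secreted Wnt antagonist SFRP5 was instead high in SRRM3 alone, at 3.56 cRPKM in SRRM3, 1.36 in SRRM4 and 1.45 in MSI1, against 1.79 in the empty vector.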
